A study of Homo sapiens with 12 samples.

Results

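The levels of 10 keratin genes were examined in 4 human breast epithelial cell lines: the simple epithelial keratins KRT7, KRT8, KRT18 and KRT19, the stratified epithelial keratins KRT10, KRT13 and KRT80, and the hair keratins KRT81, KRT83 and KRT86. They were chosen by gene symbol, and all 10 were found among the 59427 symbols of the authors' deposited TPM table (an abundance scaled for transcript length and for the library's total). MCF10A is an immortalised line that stands for normal breast epithelium, and MCF10AT1 is its HRAS G12V transformed derivative. MCF10DCIS stands for ductal carcinoma in situ and MCF10CA1a for metastatic disease; both are known as further derivatives of the HRAS-transformed cells. Each stage is 1 line, and 1 culture medium served all of them, containing hydrocortisone, cholera toxin, EGF, insulin and horse serum. The labels state 3 libraries per line, 12 in all, and the table gives the authors' mean TPM per line. No value therefore has an error, no difference has a replicate check or a test, and the depth is unknown.

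Keratins are the intermediate filament proteins of epithelial cells. Each filament is built from pairs of 1 type I (acidic) and 1 type II (basic) chain, and the pair in use marks the kind of epithelium: KRT8 with KRT18 in simple epithelia such as the luminal cells of the breast, KRT5 with KRT14 in basal cells, KRT1 with KRT10 in the suprabasal epidermis, KRT4 with KRT13 in non-cornified stratified epithelia. Hair keratins are cysteine-rich chains that build the hair shaft, where KRT81, KRT83 and KRT86 pair with type I hair keratins such as KRT31. KRT7, KRT8 and KRT80 are type II chains of epithelia, and KRT18, KRT19, KRT13 and KRT10 are type I chains.

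The 3 hair keratin genes have similar coding sequences (91.5% to 94.2% identical, lowest between KRT83 and KRT86), which bears on how far their levels can be told apart. The stretch below is the 90-base part of the KRT81 coding sequence that differs most from KRT86 without a gap, taken from the GENCODE transcripts (GRCh38), with capitals where the 3 genes are not all the same. It crosses a splice junction in each gene. It covers coding bases 1237 to 1326 of KRT81 (chr12:52286447-52287112, minus strand), 1237 to 1326 of KRT86 (chr12:52306270-52308450, plus strand) and 1252 to 1341 of KRT83 (chr12:52314772-52315903, minus strand).
KRT81: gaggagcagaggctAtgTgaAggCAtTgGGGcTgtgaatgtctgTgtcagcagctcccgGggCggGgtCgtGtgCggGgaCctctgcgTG
KRT86: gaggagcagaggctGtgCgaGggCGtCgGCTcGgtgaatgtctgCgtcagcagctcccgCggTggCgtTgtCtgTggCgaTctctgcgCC
KRT83: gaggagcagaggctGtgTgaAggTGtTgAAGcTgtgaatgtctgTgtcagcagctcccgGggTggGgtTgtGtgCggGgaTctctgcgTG
KRT86 differed from KRT81 at 19 of these 90 bases and KRT83 at 8. Over the whole coding sequence KRT81 was 94.2% identical to KRT86 and 93.4% identical to KRT83, and KRT81 and KRT86 shared an unbroken run of 605 identical bases (coding bases 61 to 665 of KRT81). Of all 50-base words in the KRT81 transcript, 44.6% also occurred in transcripts of other genes, as did 40.5% of those of KRT86 and 12.8% of those of KRT83. At 100 bases the shares were 30.3% for KRT81, 28.0% for KRT86 and 0% for KRT83. How the quantification divided reads of such shared stretches is not given in the sources used here, so the levels of KRT83 and KRT86 beside the far higher KRT81 are uncertain. The 50-base words of KRT18 were shared at 28.9%, with its pseudogenes, and those of KRT7, KRT8 and KRT19 at 0.997%, 1.88% and 1.79%.

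For the series as a whole, structural and small non-coding RNAs held between 57.6% (MCF10A) and 66.0% (MCF10DCIS) of the TPM, so each keratin is given also as rescaled TPM, which leaves out these RNAs, ribosomal protein genes and mitochondrially encoded genes. HRAS, the gene introduced into MCF10AT1, was 50.8 TPM in MCF10A and 126, 276 and 312 TPM in MCF10AT1, MCF10DCIS and MCF10CA1a. The epithelial surface marker EPCAM lay between 37.6 TPM (MCF10AT1) and 148 TPM (MCF10CA1a). Markers of other cell types were low: the 6 fibroblast markers summed to between 0.818 and 3.55 TPM, the 4 endothelial markers to between 0.936 and 4.75 TPM, and the 4 melanocyte markers to at most 0.591 TPM. The 6 leukocyte markers summed to between 6.27 and 17.5 TPM, most of it CD14 in MCF10A (11.9 TPM), while PTPRC was at most 0.0128 TPM. The 10 luminal markers summed to 942 TPM in MCF10A and to 165, 209 and 418 TPM in MCF10AT1, MCF10DCIS and MCF10CA1a. KIT was listed at 0 in the last 2. The sum was highest in MCF10A, as were 8 of the 10 members and 40.3% of the genes that reached 1 TPM. Of the single luminal markers, EPCAM and FOXA1 (10.1 TPM, against 5.25 TPM in MCF10A) were instead highest in MCF10CA1a. The part of these markers in the keratin differences was not tested. The 11 basal markers, among them KRT5, KRT14 and KRT17, summed to 1437, 1091, 2378 and 1740 TPM, and CNN1 was listed at 0 in MCF10A and MCF10CA1a. In such bulk samples, fewer cells of a type and less RNA per cell cannot be told apart.

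KRT7, a type II keratin of glandular and ductal epithelia, was the keratin gene with the most TPM in each of the 4 lines. Its level was 3531 TPM in MCF10A, 2018 TPM in MCF10AT1, 2046 TPM in MCF10DCIS and 1444 TPM in MCF10CA1a. MCF10A was highest, MCF10AT1 and MCF10DCIS were close to each other, and MCF10CA1a was lowest. On the log2(TPM + 1) scale used for all differences below, where at least 1 (a 2-fold difference of TPM + 1) was counted as higher or lower, KRT7 in MCF10AT1, MCF10DCIS and MCF10CA1a differed from MCF10A by -0.81, -0.79 and -1.29. With rescaled TPM the differences were -0.68, -0.42 and -1.14, so MCF10CA1a was the line counted as lower on both scales. KRT7 was the gene of rank 10 by TPM among the 13108 genes with at least 1 TPM in at least 1 line in MCF10A, and of rank 31 in MCF10CA1a.

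KRT8 and KRT18, the type II and type I chains of the simple epithelial pair, did not follow the same order of lines. KRT8 was 942 TPM in MCF10A, 397 TPM in MCF10AT1, 393 TPM in MCF10DCIS and 661 TPM in MCF10CA1a. KRT18 was 766 TPM in MCF10A, 523 TPM in MCF10AT1, 684 TPM in MCF10DCIS and 977 TPM in MCF10CA1a. KRT8 was thus highest in MCF10A, and KRT18 in MCF10CA1a. The differences of KRT8 from MCF10A were -1.25, -1.26 and -0.51 in MCF10AT1, MCF10DCIS and MCF10CA1a, and it was counted as lower in the first 2; in MCF10DCIS the count was lost with rescaled TPM (-0.89) and with median-of-ratios scaling (-0.81). Those of KRT18 were -0.55, -0.16 and 0.35, none of them counted, and its value in MCF10DCIS became 0.21 with rescaled TPM. The ratio of KRT8 to KRT18, which no single scale factor per line can change, was 1.23 in MCF10A, against 0.759, 0.575 and 0.676 in MCF10AT1, MCF10DCIS and MCF10CA1a, so KRT8 exceeded KRT18 in MCF10A and was below it in each derived line. The 2 genes lie head to head on chromosome 12, KRT8 from 52897187 to 52949954 on the minus strand and KRT18 from 52948871 to 52952901 on the plus strand (GENCODE, GRCh38), and their annotated exons share 525 bases on opposite strands. The kit was stranded, and the strand setting of the quantification is not given in the sources used here. Both genes also have many pseudogenes in the table: the summed level of those of KRT8 was at most 7.64 TPM and of those of KRT18 at most 2.23 TPM in any line.

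KRT19, a small type I chain without a tail domain that marks luminal breast cells, was far below the other simple keratins. Its level was 5.76 TPM in MCF10A, 0.419 TPM in MCF10AT1, 0.688 TPM in MCF10DCIS and 0.616 TPM in MCF10CA1a. MCF10A stood alone above 1 TPM, and the 3 derived lines lay close together. The differences from MCF10A were -2.25, -2.00 and -2.07, and -2.93, -2.31 and -2.58 with rescaled TPM. KRT19 was counted as lower in all 3 derived lines on both scales, but it entered the comparison through MCF10A alone.

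**Figure D1:**
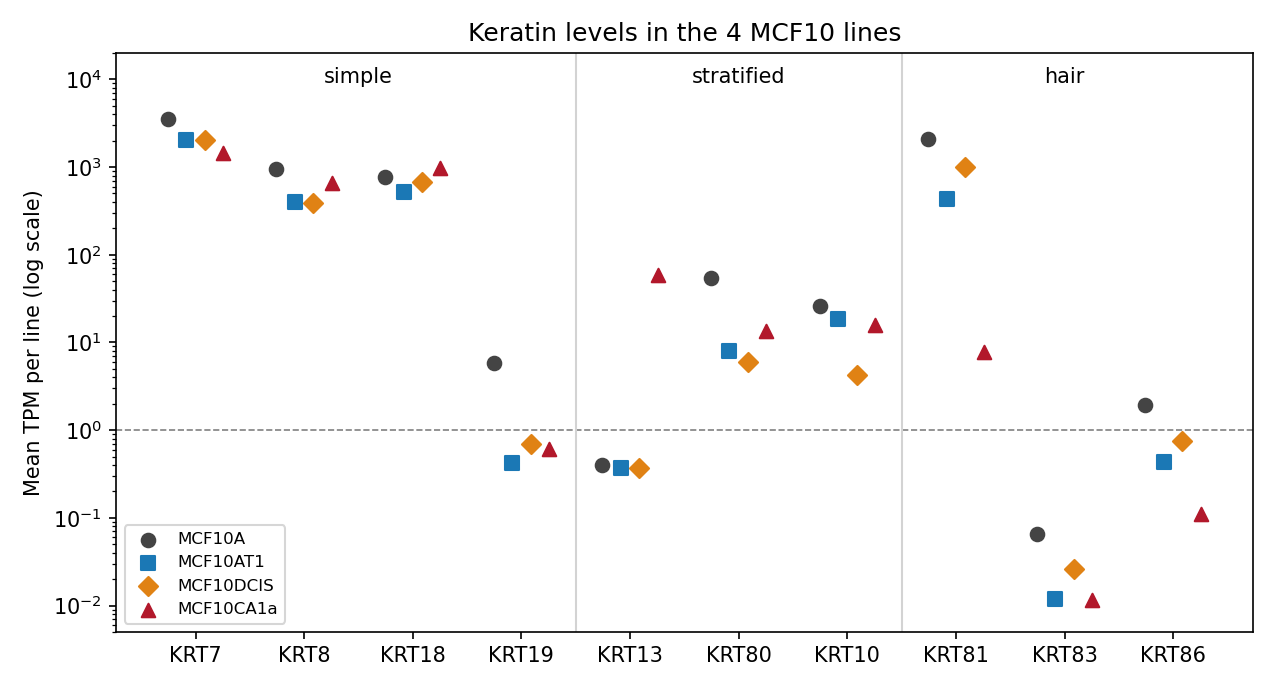
Mean TPM (log axis) of each of the 10 keratin genes in the 4 lines, 1 point per line, with the dashed line at 1 TPM. KRT7, KRT8 and KRT18 lie between 393 and 3531 TPM in every line, whereas KRT81 spans 7.87 to 2100.1 TPM and KRT13 stands above 1 TPM in MCF10CA1a alone.

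Among the stratified keratins, KRT13 was the member that was higher in a derived line. KRT13, made by suprabasal cells of non-cornified stratified epithelia such as the mouth and oesophagus, was 0.401 TPM in MCF10A, 0.374 TPM in MCF10AT1, 0.366 TPM in MCF10DCIS and 58.9 TPM in MCF10CA1a. MCF10CA1a stood alone, and the levels of the other 3 lines were nearly equal. The difference of MCF10CA1a from MCF10A was 5.42, or 6.46 with rescaled TPM, and against MCF10AT1 and MCF10DCIS it was 5.45 and 5.45. The usual type II partner KRT4 was 0.816 TPM in MCF10CA1a and at most 0.0545 TPM in the other lines, below 1 TPM throughout. KRT13 is on the minus strand of chromosome 17 (41500981 to 41505705), and 1.03% of its 50-base words occurred in another gene, KRT15. The antisense gene AC019349.1, which covers 476 of its exonic bases, was at most 0.112 TPM.

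KRT80, a type II keratin found near desmosomes and in differentiating epithelia, was lower in every derived line than in MCF10A. Its level was 54.0 TPM in MCF10A, 7.998 TPM in MCF10AT1, 5.93 TPM in MCF10DCIS and 13.4 TPM in MCF10CA1a. MCF10A was highest and MCF10DCIS lowest. The differences from MCF10A were -2.61, -2.99 and -1.93, and KRT80 was counted as lower in each derived line on both scales. MCF10CA1a exceeded MCF10DCIS by 1.05, a count that was lost with rescaled TPM (0.92), median-of-ratios scaling (0.73) and quantile normalization (0.71). Of the 50-base words of KRT80, 0.416% were shared with other genes.

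KRT10, the type I chain of the suprabasal epidermis, was low in MCF10DCIS. It was 25.8 TPM in MCF10A, 18.5 TPM in MCF10AT1, 4.31 TPM in MCF10DCIS and 15.8 TPM in MCF10CA1a. MCF10DCIS stood apart below the other 3 lines, none of which differed from another by the size counted. The difference of MCF10DCIS was -2.33 from MCF10A and -1.88 from MCF10AT1, or -2.14 and -1.80 with rescaled TPM, and MCF10CA1a was above MCF10DCIS by 1.66, or 1.59 with rescaled TPM. The partner KRT1 was listed at 0 in MCF10A, MCF10AT1 and MCF10CA1a and at 0.00231 TPM in MCF10DCIS. TMEM99, which overlaps KRT10 on the opposite strand over 56 exonic bases, was 12.1, 9.63, 4.95 and 8.14 TPM in MCF10A, MCF10AT1, MCF10DCIS and MCF10CA1a, also lowest in MCF10DCIS. None of the 50-base words of KRT10 occurred in another gene.

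KRT81 had the widest range of the members. This type II hair keratin was 2100.1 TPM in MCF10A, 434 TPM in MCF10AT1, 1002 TPM in MCF10DCIS and 7.87 TPM in MCF10CA1a, so that MCF10A held 267 times the TPM of MCF10CA1a. In MCF10A it was the gene of rank 22 by TPM, above KRT8 and KRT18, and in MCF10CA1a of rank 6496. Its levels do not follow the order of the stages, since MCF10DCIS lay above MCF10AT1 by 1.21, or 1.45 with rescaled TPM. In MCF10AT1, MCF10DCIS and MCF10CA1a the differences from MCF10A were -2.27, -1.07 and -7.89, and -2.14, -0.70 and -7.86 with rescaled TPM. The value of MCF10DCIS was counted with the deposited TPM but with none of the 3 other scalings. The difference of MCF10CA1a was -5.61 from MCF10AT1 and -6.82 from MCF10DCIS. Over the 4 lines KRT81 had a log2 range of 7.89, and 2 of the 13108 genes, KRT81 itself included, had a range that large; the median range was 0.74.

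KRT86 and KRT83, the other 2 hair keratins, were low. KRT86 was 1.91 TPM in MCF10A, 0.431 TPM in MCF10AT1, 0.751 TPM in MCF10DCIS and 0.111 TPM in MCF10CA1a. The order of the lines was that of KRT81, at a level lower by a factor of 1098, 1007, 1335 and 71.2 in MCF10A, MCF10AT1, MCF10DCIS and MCF10CA1a. The part of shared reads in that likeness was not tested. KRT86 differed from MCF10A by -1.03, -0.73 and -1.39; its count in MCF10AT1 was lost with median-of-ratios scaling (-0.95) and quantile normalization (-0.93). KRT83 was 0.0662, 0.0120, 0.0264 and 0.0115 TPM in MCF10A, MCF10AT1, MCF10DCIS and MCF10CA1a, under 1 TPM in each line, and it is the 1 member of 10 that did not enter the comparisons across all genes. The gene of KRT81 lies within KRT86 on chromosome 12, KRT81 on the minus strand from 52285913 to 52291534 and KRT86 from 52249300 to 52309163 on the plus strand, and their annotated exons share 0 bases.

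**Figure D2:**
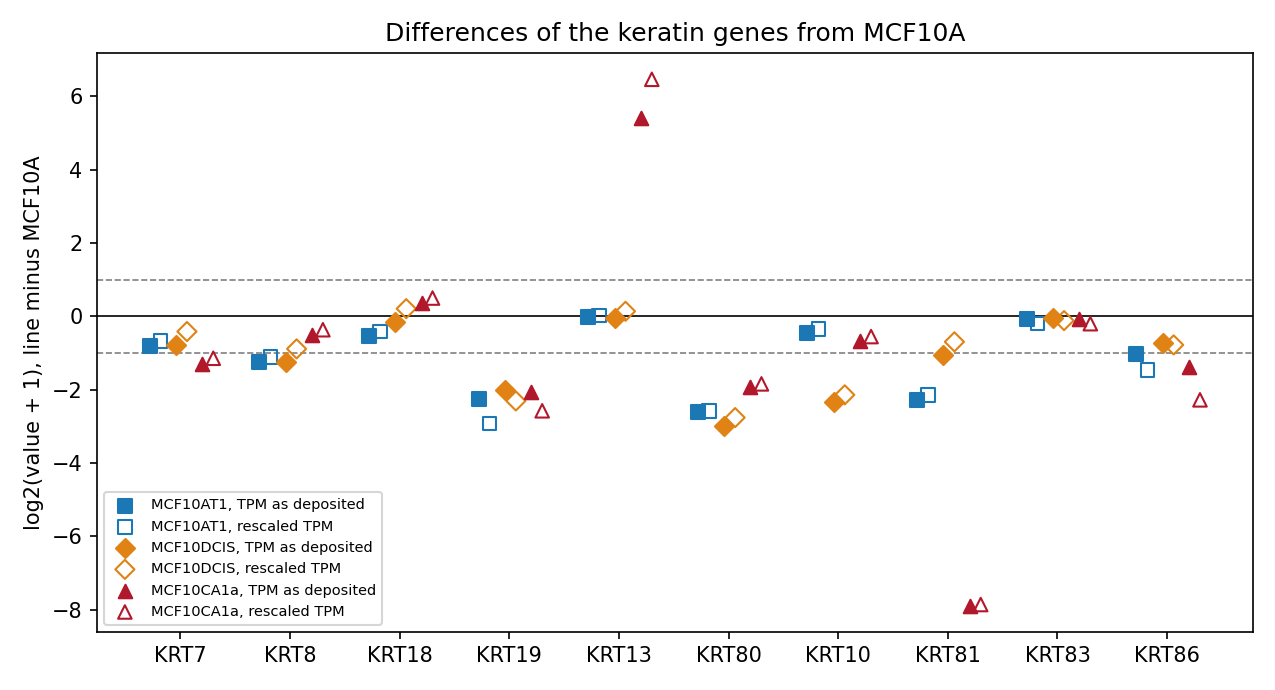
Difference of each keratin gene from MCF10A in the 3 derived lines on the log2(value + 1) scale, filled for the deposited TPM and open for rescaled TPM, with dashed lines at the size counted as higher or lower. KRT19 and KRT80 lie below the lower line in all 3 derived lines on both scales, KRT81 in MCF10CA1a is at -7.89 and KRT13 in MCF10CA1a at 5.42.

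Counted over all 10 genes, the keratins were more often lower than higher in the derived lines. In MCF10AT1 against MCF10A, 5 were lower (KRT8, KRT19, KRT80, KRT81 and KRT86) and 0 higher, where 5.87% of all 13108 genes were lower and 3.39% higher. In MCF10DCIS, 5 were lower (KRT8, KRT19, KRT10, KRT80 and KRT81), or 3 with rescaled TPM, and 0 higher, against 14.8% lower and 3.56% higher of all genes. In MCF10CA1a, 5 were lower (KRT7, KRT19, KRT80, KRT81 and KRT86) and KRT13 was higher, against 7.14% lower and 5.97% higher of all genes. With rescaled TPM the shares of all genes were 6.65% lower and 5.84% higher in MCF10AT1, 10.3% and 7.86% in MCF10DCIS, and 7.80% and 9.48% in MCF10CA1a. The median difference of the 10 genes was -0.92, -0.93 and -0.98 in MCF10AT1, MCF10DCIS and MCF10CA1a, beside -0.066, -0.38 and -0.074 for all genes. With rescaled TPM it was -0.90, -0.74 and -0.85, beside 0.041, -0.093 and 0.046. These 3 comparisons share the MCF10A values. The members were chosen with results of these data known, KRT19 and KRT86 reached 1 TPM in MCF10A alone, and KRT13 in MCF10CA1a alone, so these counts are a description of the set.

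With the deposited TPM, fewer members were counted in each comparison among the derived lines than in those with MCF10A. MCF10DCIS against MCF10AT1 had KRT81 higher and KRT10 lower, where 3.23% of all genes were higher and 7.51% lower. MCF10CA1a against MCF10AT1 had KRT13 higher and KRT81 lower, where 6.0% were higher and 3.97% lower. In MCF10CA1a against MCF10DCIS, KRT13, KRT80 and KRT10 were higher and KRT81 lower, where 6.03% were higher and 1.35% lower. With rescaled TPM the last comparison had 2 members higher and 2 lower, as KRT80 was no longer counted and KRT86 was (-1.50). That is more than in MCF10DCIS against MCF10A on that scale (3 lower and 0 higher). The rescaled shares of all genes were 6.65% higher and 7.45% lower, 8.38% and 5.46%, and 6.02% and 2.89% in these 3 comparisons.

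The make-up of the keratin pool, which does not depend on the level of other RNAs, differed between the lines. All 55 keratin genes of the family lists together held 12380 TPM in MCF10A, 5041 TPM in MCF10AT1, 7701 TPM in MCF10DCIS and 5460 TPM in MCF10CA1a. On the rescaled scale this was 3.61%, 1.61%, 2.91% and 1.76% of the TPM, so MCF10A and MCF10DCIS were above the other 2 lines on both scales. The 10 members made up 59.99%, 67.4%, 53.7% and 58.2% of the keratin TPM. The 4 simple keratins were 58.3% and 56.5% of the pool in MCF10AT1 and MCF10CA1a, and 42.4% and 40.6% in MCF10A and MCF10DCIS. KRT7 was 28.5%, 40.04%, 26.6% and 26.4%, and KRT18 was 6.19%, 10.4%, 8.88% and 17.9%. KRT81 held 16.96% in MCF10A and 13.0% in MCF10DCIS, 8.60% in MCF10AT1, and 0.144% in MCF10CA1a. KRT13 reached 1.08% in MCF10CA1a.

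**Figure D3:**
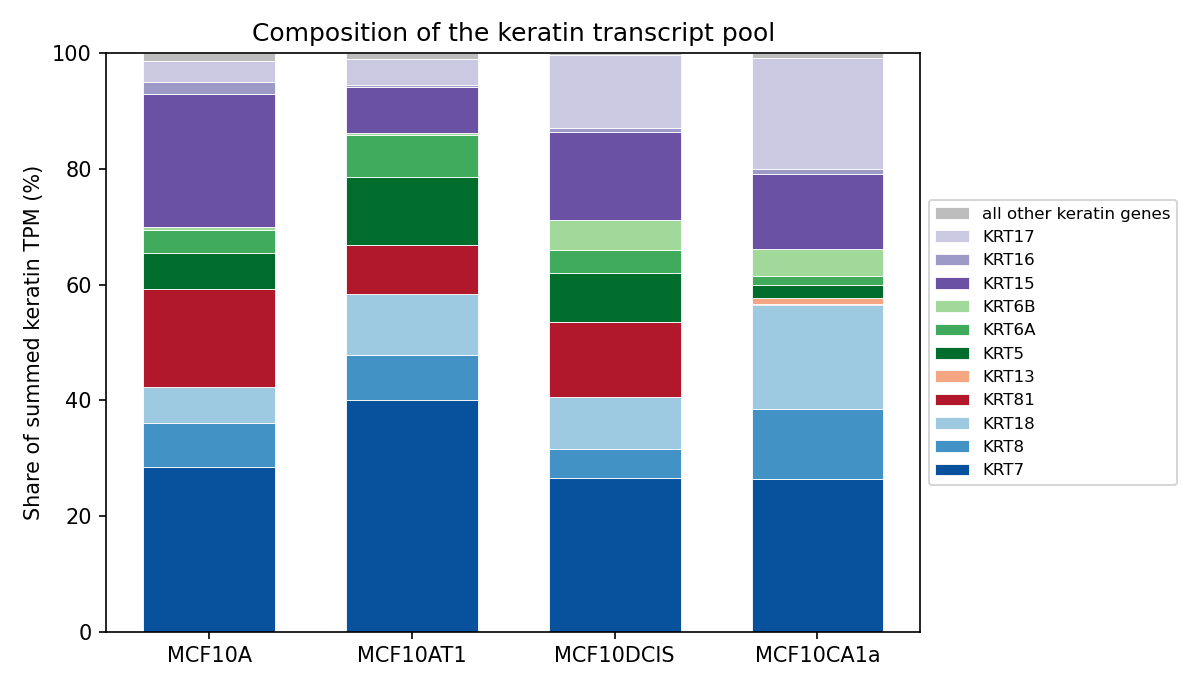
Share of the summed keratin TPM (percent) held by each keratin gene in the 4 lines, as stacked bars that reach 100%. KRT7 is the largest block in every line, KRT18 grows from 6.19% in MCF10A to 17.9% in MCF10CA1a, and the block of KRT81 shrinks to 0.144% in MCF10CA1a.

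Since filaments hold both chain types in equal amounts, the summed type II and type I levels were compared. Type II keratins summed to 7957 TPM in MCF10A, 3831 TPM in MCF10AT1, 4811 TPM in MCF10DCIS and 2590 TPM in MCF10CA1a. Type I keratins summed to 4423, 1209, 2890 and 2871 TPM in the same order. The ratio of type II to type I transcripts, in that order, was 1.80, 3.17, 1.66 and 0.902. Type II transcripts thus exceeded type I in 3 lines and not in MCF10CA1a, the line in which KRT7, KRT81, KRT5 and KRT6A were lowest. Without hair keratins the ratios were 1.32, 2.81, 1.32 and 0.899, which keeps MCF10AT1 highest and MCF10CA1a lowest. These are transcript levels, and no protein was measured.

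The type I partners of the hair keratins were near 0 TPM in each line. The 11 type I hair keratin genes (KRT31 to KRT40) reached at most 0.0639 TPM in any line, and summed to 0.101 TPM in MCF10A, where KRT81 was 2100.1 TPM. KRT82, KRT84 and KRT85, the 3 other type II hair keratins, reached at most 0.0156 TPM. The 94 keratin-associated protein genes, which encode the matrix of the hair shaft, reached at most 0.331 TPM. Of 16 genes of the hair shaft programme, 4 had at least 1 TPM in a line. HOXC13, a homeobox gene of hair keratin control, was 18.7 TPM in MCF10A and 6.87, 4.08 and 6.18 TPM in MCF10AT1, MCF10DCIS and MCF10CA1a. It was counted as lower in all 3 derived lines (-1.32, -1.96 and -1.46). In MCF10CA1a, however, 2 of the 4 genes, or 3 with rescaled TPM, were higher, beside 5.97% and 9.48% of all genes.

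In the genome the type II members and KRT18 lie in 1 cluster on chromosome 12 from 52168996 to 52952901, and KRT10, KRT13 and KRT19 in the type I cluster on chromosome 17. Neighbouring keratin genes differed from MCF10A in unlike ways. KRT81 in MCF10CA1a was at -7.86 with rescaled TPM, while KRT86, whose span encloses KRT81, was at -2.28, KRT7 on one side was at -1.14, and KRT6B, the next keratin gene on the other side that reached 1 TPM, was at 2.00. KRT13 in MCF10CA1a was at 6.46, while its neighbour KRT15 was at -1.84 and the next gene, KRT19, at -2.58. The 31 non-keratin genes within 1000 kb of the chromosome 12 cluster had a median of 0.0086, -0.17 and -0.021 in MCF10AT1, MCF10DCIS and MCF10CA1a, close to the medians of 0.071, -0.14 and 0.053 over the 666 genes of that chromosome; in MCF10CA1a 4 of the 31 were lower and 0 higher. Near the chromosome 17 cluster, the median of 49 such genes was 0.15, 0.12 and 0.50, beside 0.12, 0.21 and 0.25 over the 755 genes of that chromosome. The flank was thus furthest above its chromosome in MCF10CA1a, where 8 of the 49 genes were higher and 1 lower. The highest of them (7.34) exceeded KRT13. In MCF10AT1 9 of the 49 were higher and 2 lower, and in MCF10DCIS 7 and 1, though KRT13 was not counted in these lines. Beside the counts of both flanks in MCF10CA1a, 7.80% of all genes were lower and 9.48% higher with rescaled TPM. These shares were 6.65% and 5.84% in MCF10AT1, and 10.3% and 7.86% in MCF10DCIS.

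**Figure D4:**
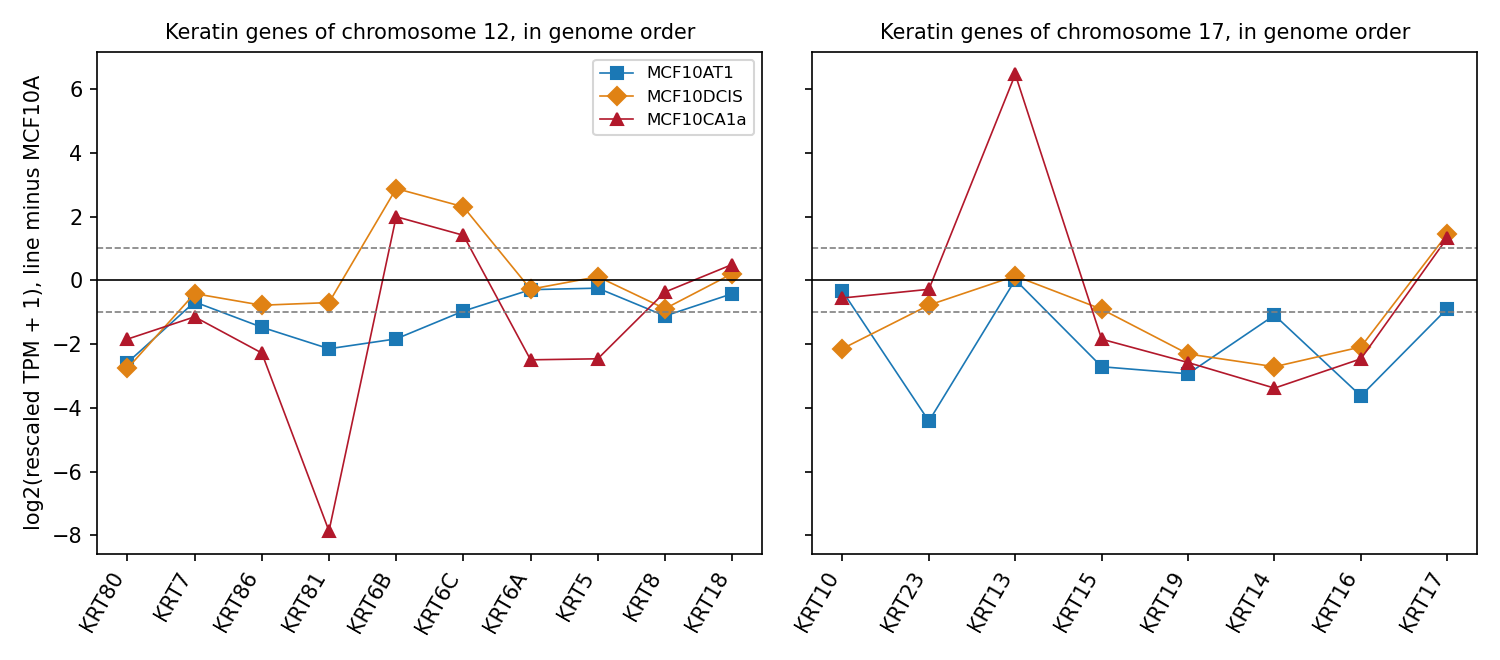
Difference from MCF10A on the log2(rescaled TPM + 1) scale for the keratin genes with at least 1 TPM in at least 1 line, in genome order in the clusters on chromosomes 12 and 17, with 1 line per derived cell line and dashed lines at 1 and -1. KRT81 (-7.86) and KRT13 (6.46) in MCF10CA1a stand out from the genes on either side of them.

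Of the 45 other keratin genes, 9 reached 1 TPM in a line, and 8 of the 55 keratin genes were listed at 0 in all lines. The basal chain KRT5 was 768, 592, 643 and 126 TPM in MCF10A, MCF10AT1, MCF10DCIS and MCF10CA1a, and its partner KRT14 was 57.8, 24.6, 6.62 and 4.75 TPM. KRT15, a type I chain of basal cells, was 2830.4 TPM in MCF10A, 395 TPM in MCF10AT1, 1169 TPM in MCF10DCIS and 712 TPM in MCF10CA1a, which is, as for KRT81, lower in MCF10AT1 than in MCF10DCIS. KRT17, a type I chain induced by injury, was 459 and 227 TPM in MCF10A and MCF10AT1 and 971 and 1046 TPM in MCF10DCIS and MCF10CA1a. Its companion KRT6B was 70.8, 17.9, 405 and 256.4 TPM in the same order. KRT6A was 488, 364, 311 and 78.2 TPM and KRT16 was 261, 19.0, 47.2 and 42.6 TPM. KRT23, a type I chain of glandular epithelia, was 16.6, 0.413, 7.37 and 12.3 TPM. Of the 5 other type I keratins that reached 1 TPM, 5 were lower in MCF10AT1 (4 with rescaled TPM), 4 lower and 1 higher in MCF10DCIS (2 and 1 with rescaled TPM), and 3 lower and 1 higher in MCF10CA1a. Of the 4 other type II keratins, 1 was lower in MCF10AT1, 2 were higher in MCF10DCIS, and 2 were lower and 1 higher (2 with rescaled TPM) in MCF10CA1a. Among those higher in MCF10DCIS, and in MCF10CA1a with rescaled TPM, was KRT6C. It reached 1 TPM in MCF10DCIS (3.57 TPM) and MCF10CA1a (2.11 TPM) alone, so it entered through these lines. Of all genes, 5.87% were lower and 3.39% higher in MCF10AT1, 14.8% and 3.56% in MCF10DCIS, and 7.14% and 5.97% in MCF10CA1a. With rescaled TPM these shares were 6.65% and 5.84%, 10.3% and 7.86%, and 7.80% and 9.48%.

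Of 15 genes that anchor or organise keratin filaments, 13 reached 1 TPM, and 1, 3 and 1 of them were lower in MCF10AT1, MCF10DCIS (1 with rescaled TPM) and MCF10CA1a, with 0 higher in each. This stands beside the 5.87%, 14.8% and 7.14% of all genes that were lower. Their medians were -0.65, -0.45 and -0.20, or -0.53, -0.083 and -0.064 with rescaled TPM, where those of all genes were 0.041, -0.093 and 0.046. Plakoglobin (JUP), which links desmosomal cadherins to the filaments, was 120 TPM in MCF10A, 53.6 TPM in MCF10AT1, 59.2 TPM in MCF10DCIS and 105 TPM in MCF10CA1a. The keratin-organising gene FAM83H was 40.2, 22.8, 18.2 and 25.5 TPM in the same order. EPPK1 of the same list, at 8.64, 3.84, 0.713 and 0.530 TPM in that order, was the gene counted as lower in MCF10CA1a. It reached 1 TPM in MCF10A and MCF10AT1 alone. Periplakin (PPL) and envoplakin (EVPL), plakins that attach filaments to desmosomes and the cornified envelope, were not counted in any derived line. PPL was 52.8, 26.4, 43.3 and 36.2 TPM in MCF10A, MCF10AT1, MCF10DCIS and MCF10CA1a, and EVPL was 10.2, 4.85, 11.3 and 13.3 TPM. VIM, the intermediate filament gene of mesenchymal cells, was 4.56 TPM in MCF10A and 516, 213 and 74.1 TPM in MCF10AT1, MCF10DCIS and MCF10CA1a. It was highest in MCF10AT1, where summed keratin TPM was lowest. Between the other 2 derived lines, however, MCF10CA1a had both less VIM and less summed keratin (5460 TPM) than MCF10DCIS (7701 TPM). The nuclear lamin genes LMNA, LMNB1 and LMNB2 were not counted as higher or lower in any derived line.

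The list of stratified differentiation genes, of which 10 of 20 reached 1 TPM, had 6 higher and 3 lower in MCF10CA1a, the line with KRT13, and a median of 1.16. Among the higher genes, SPRR1A (1.92 TPM) and SPRR3 (1.48 TPM) reached 1 TPM in MCF10CA1a alone. They entered through that line, so the count and the median there are a description. In MCF10DCIS the list had 3 higher and 4 lower, and in MCF10AT1 0 higher and 3 lower. Of all genes, 5.97% were higher and 7.14% lower in MCF10CA1a, 3.56% and 14.8% in MCF10DCIS, and 3.39% and 5.87% in MCF10AT1. Their median in MCF10CA1a was -0.074. The cornified envelope gene SPRR2A had 11.1 TPM in MCF10CA1a against 0.609 TPM in MCF10A, and SPRR2D 10.7 against 0.898 TPM. The desmosomal cadherin genes DSC2 and DSG3 went the other way, at 7.52 and 18.8 TPM in MCF10CA1a against 59.1 and 84.5 TPM in MCF10A. So did TGM1 of the same list, at 0.763 against 8.63 TPM. Of 19 measured epithelial and keratin gene regulators, 7 were lower and 1 higher in MCF10AT1. In MCF10DCIS 6 were lower and 1 higher (4 and 1 with rescaled TPM), and in MCF10CA1a 2 and 1 (2 and 2). The shares of all genes with the deposited TPM are given above. With rescaled TPM they were 10.3% lower and 7.86% higher in MCF10DCIS, and 7.80% and 9.48% in MCF10CA1a. ELF3, an ETS factor of epithelial cells, was 222 TPM in MCF10A and 10.9, 17.8 and 50.1 TPM in MCF10AT1, MCF10DCIS and MCF10CA1a, and the basal factor TP63 was 0.901 TPM and 4.81, 6.22 and 10.7 TPM. The epithelial factor EHF was 14.1 TPM in MCF10A and 3.06, 8.497 and 24.4 TPM in the derived lines, and GRHL2 was 12.3 TPM and 3.64, 4.04 and 6.58 TPM.

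Genes with the most similar pattern were sought for the 7 members that reached 10 TPM, by the Euclidean distance between their 3 log2 differences from MCF10A, among 6620 genes outside the keratin family with at least 10 TPM in a line. For KRT81 the nearest were the linker histone gene H1-5 (distance 1.65), RN7SL471P (2.37) and the mucin gene MUC1 (2.93), none within 0.5. For KRT13 they were TMPRSS15 (1.05), ANXA10 (1.33) and the protease inhibitor gene SERPINB2 (1.48), again none within 0.5. KRT80 was nearest to the vesicle transport genes MAL2 (0.48) and MYO5B (0.63) and to PSCA (0.70). MAL2 was 156, 25.7, 26.4 and 42.04 TPM in MCF10A, MCF10AT1, MCF10DCIS and MCF10CA1a. KRT10 was nearest to AKR1B1 (0.43), TRIM22 (0.44) and COMMD7 (0.44). Near KRT7 were MOCOS (0.15), the galectin gene LGALS3 (0.15) and PNPLA3 (0.24), near KRT8 were CDS1 (0.12), TAOK3 (0.20) and ARHGAP27 (0.22), and near KRT18 were VSIR, TRIP10 and PITX1 (0.11, 0.11 and 0.12), with 73, 84 and 287 genes within 0.5. A small distance over 3 differences was thus common for KRT18, and was not found for KRT81 or KRT13 among these genes. The distance depends on the size of the differences, so fewer genes can lie near a member with large ones. Of the 13108 genes, 2 had a log2 range at least that of KRT81 and 33 at least that of KRT13, these members included.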

How the data were processed

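Each value is the mean TPM of a line, as deposited by the authors, per the file headers. The submitters' processing notes name STAR, edgeR and the build hg38. Versions, the quantification program, its annotation and its strand setting were not given in the sources used here. For a pair of lines, log2(TPM + 1) in the second-named was subtracted from that in the first, a scale that understates differences of low genes. The 13108 of 59427 symbols with at least 1 TPM in at least 1 line entered counts over all genes, and a difference of at least 1 was counted. No limma fit was possible on means. Rescaled TPM sums to 1000000 after leaving out structural and small non-coding, ribosomal protein and mitochondrially encoded RNAs, classed by symbol and GENCODE release 29 (GRCh38). Positions, exons and transcript sequences come from the same release, in which 54529 symbols were found. Shared words are 50 or 100 bases of a member's longest protein-coding transcript, on the sense strand.

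All members are named; of other keratins, those with at least 10 TPM in a line; of other lists, up to 4 genes with the largest difference from MCF10A whose level in the higher line reached 10 TPM; and the 3 nearest genes per member. Some genes outside these rules are named where a count or its limit rests on them. Members and lists were chosen with earlier results of these data known. Alternatives were a pseudocount of 0.1, no filter, a filter of 5 TPM, rescaled TPM, median-of-ratios scaling and quantile normalization. The calculation was tested on simulated data. Python 3.11.15, pandas 2.3.3 and numpy 2.4.6 were used.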

Additional observations from a re-analysis of the deposited data

How the results depend on the processing

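Of 324 alternative values of single keratin differences, 310 stayed on the same side of the size rule, 10 fell below it and 4 rose past it, and no counted difference changed sign. The 310 include 60 values without a filter and 48 with the filter of 5 TPM. These could not change, since a filter leaves the difference of a single gene as it is. Lower members in MCF10DCIS against MCF10A were 5 as deposited and 3 with rescaled TPM and with median-of-ratios scaling (3). In MCF10CA1a against MCF10AT1 lower members were 1, and 2 with a pseudocount of 0.1. In MCF10CA1a against MCF10DCIS they were 1, and 2 with a pseudocount of 0.1 and 2 with rescaled TPM. All 48 alternative shares and ratios within the keratin pool stayed within 1.5 times their value. For the 40 shares and 4 of the ratios the alternative added pseudogenes, which summed to at most 11.5 TPM in a line. That is too little to move them 1.5 times, so the 4 ratios without hair keratins were the values that could move. Counts over all genes moved by more than 1.5 times in 30 of 72 cases. Lower genes in MCF10DCIS against MCF10A were 1937 as deposited and 865 and 815 with median-of-ratios and quantile scaling, and higher genes 467 against 1016, 838 and 847 with rescaled TPM and these 2. Higher genes were 444 and 755 (rescaled) in MCF10AT1 against MCF10A and 783 and 1226 in MCF10CA1a against MCF10A. In MCF10CA1a against MCF10DCIS, lower genes were 177, and 374, 338 and 342 with the 3 scalings. In MCF10DCIS against MCF10AT1, higher genes were 424, and 860, 773 and 724. The cause was not tested. No paired analysis was possible because the table gives 1 mean per line; for the same reason no library could be left out. The unknown depth limits what can be said of KRT83, KRT86 and KRT19 near or below 1 TPM.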
